A study of Mus musculus with 17 samples.

Results

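The leptin receptor gene Lepr and 5 genes that act with it, Leprot, Jak2, Stat3, Socs3 and Ptpn1, were followed through the kidney chromatin of 17 mice. These 6 genes were taken by name from the 55413 annotated genes, and the window of each ran from 10 kb upstream to the end of the gene. ATAC-seq, which marks DNA open to a transposase, was run on kidney cells of male mice, and each library is represented here by its list of peak summits, the points of highest signal. The Ctrl group held wild-type C57BL/6 mice given saline (n = 5). The Case group held db/db mice (BKS.Cg-Dock7m +/+ Leprdb/J) given saline (n = 6), and the Dapa group held mice of the same db/db stock that received 1.0 mg/kg/day of dapagliflozin (n = 6), a drug that blocks SGLT2 and so keeps the kidney from taking glucose back from the urine. Treatment began at 8 weeks of age and lasted 6 weeks. All 12 db/db mice carry the db mutation of Lepr itself, and the Dock7m allele in the strain name marks the other chromosome in the heterozygotes of the stock. The db/db mice also differ from Ctrl mice in strain background, so that genotype, diabetes and strain cannot be told apart. The comparison of Dapa with Case is within db/db mice.

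Leptin is a hormone of fat cells that reports energy stores. It binds the leptin receptor, which has no enzyme activity of its own and works through the kinase Jak2 bound to its tail. Jak2 phosphorylates the receptor and the transcription factor Stat3, which then moves to the nucleus and switches on target genes. One such target is Socs3, which binds Jak2 and the receptor and shuts the signal off, and the phosphatase Ptpn1 (PTP1B) removes the phosphate from Jak2. Leprot, the leptin receptor overlapping transcript, encodes a separate small protein that controls how much receptor reaches the cell surface. The db mutation creates a wrong splice site in Lepr, so that the long receptor form, the one that signals to Stat3, is not made.

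The lists held 37402 to 56659 summits in Ctrl, 29702 to 51292 in Case and 32846 to 49442 in Dapa libraries. Each library was cut to its 29702 strongest summits, the length of the shortest list, and these are called the equal-length lists. A summit's rank percentile is its place in that list, with 100 for the strongest summit and 0 for a mouse with no summit. The numbers of reads are unknown, and a missing summit means no summit in the list, not closed chromatin. Of 10 kidney epithelium markers, 5 to 7 had a promoter summit (at most 1 kb from a start) in each library, and Lrp2, Cdh16, Pax8 and Slc12a3 had one in all 17. Slc12a1 and Aqp2 had none in any library. Of 8 leukocyte markers, none had a promoter summit in Ctrl mice, 0 to 2 had one in Case mice, with the 2 in Case 3, and 0 to 1 in Dapa mice. Endothelial and adipocyte markers, 5 each, had 0 to 1 in each library, and the endothelial ones 0 in all Dapa libraries. In bulk kidney cells a change in the share of a cell type and a change within its cells cannot be told apart, and the part of cell makeup in the results was not tested.

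Lepr and Leprot lie side by side on chromosome 4 and read in the same direction, Leprot (ENSMUSG00000035212.14) at chr4:101647718-101659364 and Lepr (ENSMUSG00000057722.17) at chr4:101717404-101815352 of mm10. Their starts stood at opposite ends of the scale in these kidneys. The start of Leprot was among the strongest summits of every library, and the start of Lepr had no summit within 1 kb in any of the 17 equal-length or complete lists. The RefSeq promoters (GRCm38.p6, plus strand, 250 bases before the start to 50 after) are shown to set the open and the unmarked start side by side, with GGGCGG, the GC box bound by Sp1-type factors, in capitals.

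Leprot promoter, chr4:101647533-101647832: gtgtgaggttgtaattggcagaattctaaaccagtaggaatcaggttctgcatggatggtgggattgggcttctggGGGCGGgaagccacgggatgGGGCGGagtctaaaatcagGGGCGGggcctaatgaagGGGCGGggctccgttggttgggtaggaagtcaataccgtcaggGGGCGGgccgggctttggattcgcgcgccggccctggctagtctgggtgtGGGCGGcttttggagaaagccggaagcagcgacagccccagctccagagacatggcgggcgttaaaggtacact

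Lepr promoter, chr4:101717157-101717456: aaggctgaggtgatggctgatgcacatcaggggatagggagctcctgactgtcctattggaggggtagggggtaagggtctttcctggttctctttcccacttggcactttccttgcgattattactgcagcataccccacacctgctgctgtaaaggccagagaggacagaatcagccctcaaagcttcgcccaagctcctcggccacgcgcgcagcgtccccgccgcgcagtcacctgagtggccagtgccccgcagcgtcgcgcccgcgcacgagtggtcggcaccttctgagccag

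The Leprot promoter held 6 GC boxes and the Lepr promoter held none, although their GC contents were alike at 60.7% and 61.3%. A GC box on either strand was present in 35.7% of 32851 RefSeq promoters of the same length. A second RefSeq start of Lepr, chr4:101717656-101717955, held 1. None of these promoters held TTCNNNGAA, the inverted repeat that STAT factors bind, called the STAT pair here.

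The Leprot region, chr4:101647024-101647786, with its median summit 268 bases before the gene start, was present in all 17 mice. Its percentiles in the Ctrl mice were 98.6, 98.6, 97.5, 99.4 and 99.4. They ran from 96.7 to 99.5 in Case mice with a median of 99.0, and from 98.6 to 99.6 in Dapa mice with a median of 99.1. The groups overlapped, with 2 Dapa mice and 1 Case mouse above every Ctrl mouse and 1 Case mouse below them all. The difference between Case and Ctrl was 0.05 percentile points (exact permutation p = 0.877, adjusted p = 0.973), and that between Dapa and Case was 0.34 points (exact permutation p = 0.626, adjusted p = 1.00). Near the top of the scale the percentile leaves little room for a difference to show.

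Within the Lepr window the equal-length lists of the 5 Ctrl mice held no summit. A summit was present in 5 of 6 Case mice, with percentiles of 31.7, 29.8, 12.2, 25.8 and 0.74, and was missing in Case 1. It was present in 6 of 6 Dapa mice, at 20.5, 26.2, 11.6, 4.11, 25.96 and 12.4. These are weak summits, since none ranked above 20277 of 29702, and none of them had a percentile above 31.7. In these lists 11 of 12 db/db mice and 0 of 5 Ctrl mice had a summit in the window, and the Dapa and Ctrl groups did not overlap.

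Among genes tested for a summit in more db/db than Ctrl mice at an unadjusted p under 0.05, 1.3% passed for Case against Ctrl, 1.23% for Dapa against Ctrl and 1.7% for all db/db mice against Ctrl. Lepr was among them in each. Fisher's exact test gave p = 0.0152 for Case, 0.00216 for Dapa and 0.00097 for all db/db mice, with the same 5 Ctrl mice in each comparison. After adjustment over all genes tested the values were 0.194, 0.25 and 0.336, so no call held. Of 34822 genes with a summit in any library, 2 had one in at least 11 db/db mice and no Ctrl mouse, Lepr being 1 of them, and 17 had the opposite pattern. Case and Dapa mice differed by 0.09 percentile points (exact permutation p = 0.983, adjusted p = 1.00).

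The Lepr difference in presence depended on the list length. In the complete lists, which had a median length of 43012 in Ctrl and 34739 in Case mice, the Lepr window held a summit in 3 of 5 Ctrl mice, 5 of 6 Case mice and 6 of 6 Dapa mice. Fisher's exact test gave p = 0.545 for Case, 0.182 for Dapa and 0.191 for all db/db mice. The percentile of Lepr in the complete lists was 14.3 points higher in Case than in Ctrl mice (exact permutation p = 0.208). It was 24.8 points higher in Dapa mice (exact permutation p = 0.0368, adjusted p = 0.392) and 19.6 points higher in all db/db mice (exact permutation p = 0.0516), so that by this measure the unadjusted call held for Dapa alone.

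**Figure D1:**
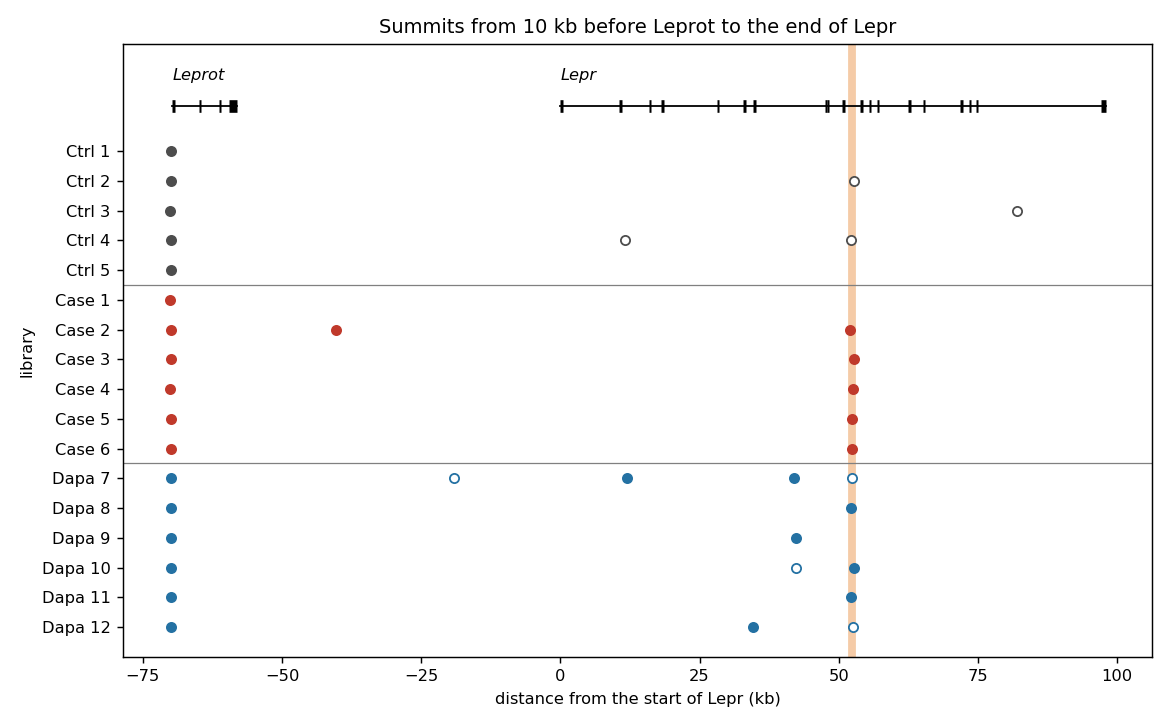
Summits along the Leprot and Lepr loci, with distance from the Lepr start in kb on the x axis and 1 row for each of the 17 libraries. Filled points are in the equal-length list and open points only in the complete list, black bars are exons, and the shaded band is the tandem array. All 17 libraries have a summit at the Leprot start, none has one at the Lepr start, and most Lepr summits lie in the band.

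Of the 12 summits that db/db mice had in the Lepr window, 8 lay in a single intron. Lepr region 2, chr4:101769188-101770365, lies in intron 10 of transcript Lepr-201. In the equal-length lists 0 of 5 Ctrl mice, 5 of 6 Case mice and 3 of 6 Dapa mice had it, 2 of 5, 5 of 6 and 5 of 6 had it in the complete lists. The share of all regions with a summit in more db/db mice at an unadjusted p under 0.05 was 0.868% for Case against Ctrl and 1.22% for all db/db mice against Ctrl. Fisher's exact test gave p = 0.0152 for Case (adjusted p = 0.149) and 0.0294 for all db/db mice (adjusted p = 0.387). For Dapa against Ctrl, 3 of 6 against 0 of 5, Fisher's exact p was 0.182. In the complete lists the p-values were 0.242 for Case, 0.117 for all db/db mice and 0.242 for Dapa. Without any 1 of the Ctrl mice the equal-length value for all db/db mice was 0.0769.

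The genome sequence under these summits is a tandem repeat. A unit of 24 bases runs head to tail over 1028 bases, chr4:101769315-101770342, which is 42.8 lengths of the unit, starting 1069 bases after exon 10 and ending 955 bases before exon 11. The most frequent form of the unit occurs 27 times. The first 6 units from its first exact copy are shown because every summit of Lepr region 2 lies in this array, with the first unit in capitals.

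Lepr intron array, chr4:101769328-101769471, plus strand: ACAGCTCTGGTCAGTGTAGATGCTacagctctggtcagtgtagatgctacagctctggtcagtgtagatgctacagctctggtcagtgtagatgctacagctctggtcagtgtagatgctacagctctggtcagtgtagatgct

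All 12 summits in the region, those of the complete lists included, fell inside the array, and those of the equal-length lists spread over 677 bases (SD 258 bases). Summits in the other 17 member regions kept closer together, with SDs of 11.3 to 209 bases. At its best period 89.6% of the bases of Lepr region 2 equalled the base 1 period on, against 29.0% to 36.6% in the other 17 regions, and 1.06% of 52371 regions reached 80% by the same measure. The number of units in these mice was not measured, and the part of the repeat or of strain differences within it in the Lepr result was not tested.

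**Figure D2:**
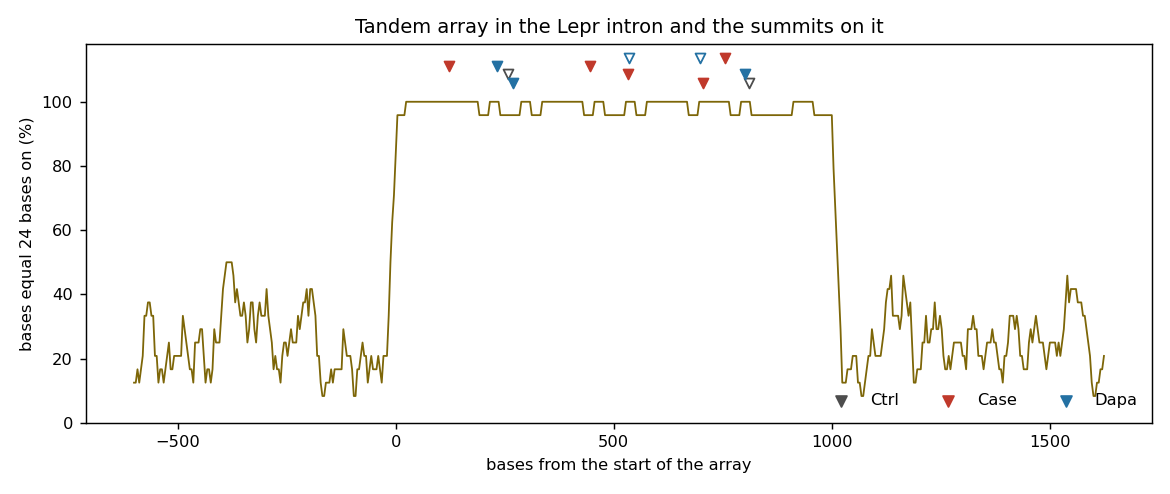
The share of bases equal to the base 24 further on, in percent, averaged over 24 bases, against the distance in bases from the start of the array. Triangles mark the 12 summits, filled where they are in the equal-length list, and their height carries no value. The share stays above 90% over nearly the whole array, and the summits are scattered along it.

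Outside the array, Lepr summits were few. Region 1, chr4:101759133-101759928 in intron 7, was present in Dapa 7 and Dapa 9 (20.5 and 11.6) and in no Ctrl or Case mouse. Dapa 7 had a further summit in intron 2 and Dapa 12 had 1 in exon 7. The complete lists added single summits in intron 18 of Ctrl 3 and intron 2 of Ctrl 4, and placed Dapa 10 in region 1 as well. So 3 of the 6 Dapa mice were counted as having a Lepr summit through sites other than the array.

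Jak2 (ENSMUSG00000024789.13, chr19:29251828-29313080), the kinase on the receptor's tail, had an open start in all 17 mice. The percentiles of its strongest summit were 83.9, 78.0, 90.4, 84.9 and 85.3 in Ctrl mice. They ran from 55.7 to 93.7 in Case mice with a median of 84.1, and from 60.4 to 91.3 in Dapa mice with a median of 72.5. Dapa mice were mostly low, with 4 of 6 below every Ctrl mouse, but the difference of -10.21 points did not pass (exact permutation p = 0.0909, adjusted p = 0.427), and it was -4.65 in Case mice (exact permutation p = 0.558, adjusted p = 0.845). Leaving out Case 1 turned the Case difference to 0.17 points.

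A second Jak2 region, chr19:29253608-29254249 in intron 1, was present in 2 of 5 Ctrl mice, 4 of 6 Case mice and 6 of 6 Dapa mice. Its mean percentile was 15.8 ± 24.1 (SD, n = 5) in Ctrl, 38.3 ± 30.0 (SD, n = 6) in Case and 38.5 ± 18.2 (SD, n = 6) in Dapa mice. The exact permutation test of db/db against Ctrl gave p = 0.0897 (adjusted p = 0.458). Regions in introns 2 and 8 were present in 2 and 4 of 17 mice. The RefSeq promoter of Jak2 was the richest in G and C of the 6 genes, at 81%, and held 3 GC boxes.

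Stat3 (ENSMUSG00000004040.16, chr11:100885098-100939540, minus strand), the factor that carries the leptin signal to the nucleus, had an open start and 2 regions inside the gene that passed unadjusted tests, in opposite directions. Its start, chr11:100939225-100939902, was open in all 17 mice at 92.3 to 99.5 across the groups. The means were 95.2 ± 1.94 (SD, n = 5) in Ctrl, 96.7 ± 2.72 (SD, n = 6) in Case and 97.0 ± 1.47 (SD, n = 6) in Dapa mice. The difference between all db/db mice and Ctrl was 1.66 points (exact permutation p = 0.145, adjusted p = 0.563). With complete lists the difference was 0.59 points (exact permutation p = 0.575). It ran from 1.01 to 2.37 points with mice left out in turn. The exact permutation p was then 0.0375 without Case 2 and 0.0489 without Ctrl 4, and above 0.05 otherwise.

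Stat3 region 2, chr11:100908060-100908616, lies in intron 3 of Stat3, at -113 bases from the start of a short annotated transcript of the gene. Its summits in the equal-length lists lay within 56 bases of each other, and the 150 bases around the median summit are shown on the strand of the gene because this region separated Ctrl from Case mice. Capitals would mark the STAT pair, the GC box, the CCAAT box (the letters CCAAT) or the AP-1 site (TGANTCA) on either strand, and none was found in it.

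Stat3 region 2, chr11:100908263-100908412, minus strand: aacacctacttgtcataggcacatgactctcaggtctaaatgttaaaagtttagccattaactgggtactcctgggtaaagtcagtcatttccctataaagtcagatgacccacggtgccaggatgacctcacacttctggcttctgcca

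The STAT pair was present in 7.96% of the 300-base windows at the median summits of all 52371 regions, the GC box in 24.5%, the CCAAT box in 33.1% and the AP-1 site in 9.19%, where matches of different motifs may overlap, and the 300 bases of this region held none of them.

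The Ctrl mice had percentiles of 8.54, 45.4, 43.4, 18.5 and 39.1 in Stat3 region 2. All 6 Case mice were at 0, and of the Dapa mice only Dapa 10 had a summit, at 35.0. Case and Ctrl mice did not overlap. In the complete lists 5 of 5 Ctrl mice, 1 of 6 Case mice and 2 of 6 Dapa mice had the summit, so most db/db mice lacked it there too. Fisher's exact test then gave p = 0.0152 for Case, 0.0606 for Dapa and 0.00905 for all db/db mice, and the unadjusted call of presence for Dapa was lost.

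The direction is the common one in these lists, since regions with a summit in fewer db/db than Ctrl mice at an unadjusted p under 0.05 made up 9.32% of those tested for Case, 6.68% for Dapa and 8.06% for all db/db mice. Fisher's exact test gave p = 0.00216 for Case (adjusted p = 0.136), 0.0152 for Dapa (adjusted p = 0.191) and 0.00097 for all db/db mice (adjusted p = 0.161). The mean percentile was lower in db/db than in Ctrl mice, a difference of -28.06 points with exact permutation p = 0.00226 and adjusted p = 0.0852, where 10.8% of all regions were lower at an unadjusted p under 0.05. Without Dapa 10 the difference was -30.98 and the adjusted p 0.0417, and over the libraries left out in turn the adjusted p ran up to 0.204. With complete lists the difference for all db/db mice was -48.36 points (exact permutation p = 0.000323, adjusted p = 0.0545). For Dapa against Ctrl the percentile difference was -25.14 points (exact permutation p = 0.0303, adjusted p = 0.33), where 8.23% of regions were lower at an unadjusted p under 0.05. It was -45.05 points with complete lists (exact permutation p = 0.00649), and in the equal-length lists the p ran up to 0.0619 with single mice left out and stayed under 0.05 in 3 of 11 such cases. The comparison of Case with Dapa mice, 0 of 6 against 1 of 6, gave Fisher's exact p = 1.00.

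Stat3 region 3, chr11:100893332-100893949 in intron 20, went the other way. Its percentiles in Ctrl mice were 30.9, 45.4, 66.04, 66.9 and 30.2. In Case mice they were 76.2, 69.2, 79.2, 89.9 and 75.1, with no summit in Case 3, and in Dapa mice they ran from 54.8 to 89.9 with a median of 80.3. Apart from Case 3, every Case mouse and 4 of 6 Dapa mice lay above all Ctrl mice.

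Dapa exceeded Ctrl mice by 27.4 points (exact permutation p = 0.0216, adjusted p = 0.295), and 3.9% of regions were higher at an unadjusted p under 0.05 in that comparison. Case exceeded Ctrl by 17.1 points (exact permutation p = 0.318, adjusted p = 0.674) with Case 3 and by 30.0 points without it (exact permutation p = 0.00794, adjusted p = 0.228). All db/db mice exceeded Ctrl by 22.2 points, which did not pass (exact permutation p = 0.081, adjusted p = 0.439), and by 28.6 points without Case 3 (exact permutation p = 0.00229, adjusted p = 0.0985). With mice left out in turn, the exact permutation p was under 0.05 in 1 of 11 cases for Case and 1 of 17 for all db/db mice. Without Ctrl 5 these exact permutation p-values rose to 0.495 and 0.191. For Dapa the p stayed under 0.05 in 11 of 11 cases. In the complete lists the differences were smaller, at 17.8 points for Dapa (exact permutation p = 0.0216), 3.29 for Case (exact permutation p = 0.879) and 10.53 for all db/db mice (exact permutation p = 0.442). Case 3 is the library with 2 leukocyte markers, and the part of its cell makeup in this value was not tested.

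The number of Stat3 summits was lower in Case mice by the unadjusted test. All 5 Ctrl mice had 3 summits in the window, Case mice had 1 or 2 and Dapa mice 2 or 3. The summits of each Ctrl mouse were those of regions 1, 2 and 3. No Case mouse had region 2 and Case 3 also lacked region 3, so the count is not separate from the region results. The Case mean was 1.17 lower, a difference of -1.17 (exact permutation p = 0.00216, adjusted p = 0.463), where 3.67% of genes had fewer at an unadjusted p under 0.05. For all db/db mice the difference was -0.92 (exact permutation p = 0.00339, adjusted p = 0.387) against 4.93% of genes. In the complete lists the Case difference was -0.83 (exact permutation p = 0.145) and that for all db/db mice -0.58 (exact permutation p = 0.155).

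**Figure D3:**
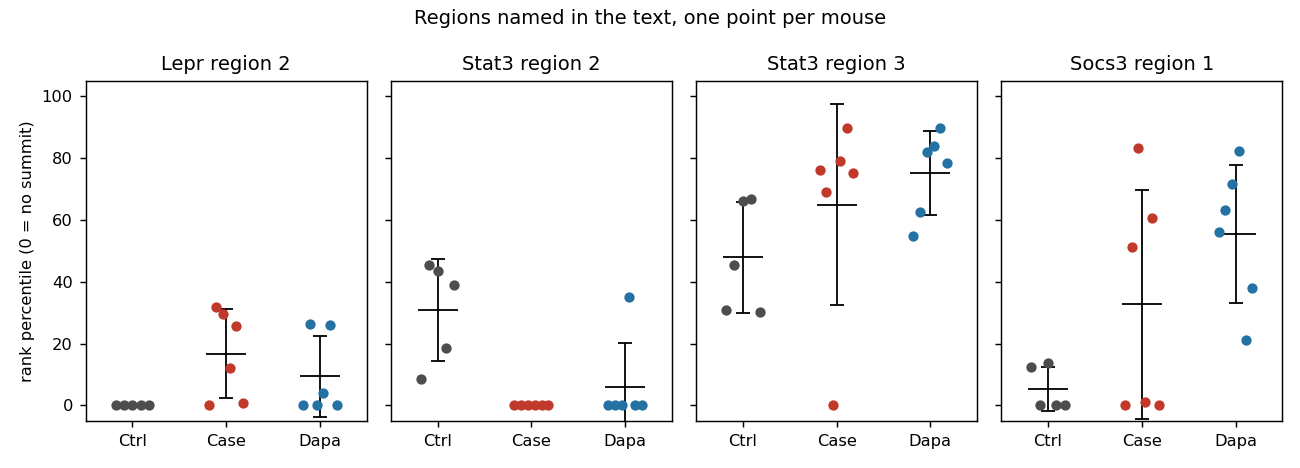
Rank percentile of the strongest summit (y axis, 0 where there is none) in 4 regions, with 1 point per mouse, the mean as a horizontal bar and the SD as the error bar (n = 5 Ctrl, 6 Case, 6 Dapa). In the equal-length lists shown, Case mice are all at 0 in Stat3 region 2, and all 6 Dapa mice lie above all Ctrl mice in Socs3 region 1.

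Socs3 (ENSMUSG00000053113.3, chr11:117966079-117970047, minus strand), the inhibitor that Stat3 switches on, had 2 regions some 0.8 kb apart around its starts. Region 2, chr11:117968967-117969564, was open in all 17 mice, at 68.7, 86.0, 79.4, 85.4 and 84.0 in Ctrl mice, 62.8 to 96.4 in Case mice (median 84.7) and 76.9 to 93.1 in Dapa mice (median 85.4). The groups overlapped, with a difference of 2.92 points between db/db and Ctrl mice (exact permutation p = 0.559, adjusted p = 0.869). The RefSeq promoter overlaps this region and is shown with the STAT pair and the GC boxes of either strand in capitals, because among the 6 genes Socs3 alone had a STAT pair in its promoter.

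Socs3 promoter, chr11:117969317-117969616, minus strand: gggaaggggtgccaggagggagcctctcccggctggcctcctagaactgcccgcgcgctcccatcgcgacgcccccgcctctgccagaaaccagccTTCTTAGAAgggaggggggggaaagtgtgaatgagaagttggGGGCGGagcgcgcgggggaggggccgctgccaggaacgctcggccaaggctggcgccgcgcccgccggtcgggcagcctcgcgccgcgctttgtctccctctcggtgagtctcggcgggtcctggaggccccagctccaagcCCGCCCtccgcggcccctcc

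The STAT pair was present in 8.3% of all RefSeq promoters. The match is a description of these letters and not of a bound site.

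Region 1 of Socs3, chr11:117969632-117970342, has its median summit 10 bases from the outermost annotated start. Its sequence is shown because in the equal-length lists it had the largest difference between group means among the 18 regions, with the single GC box in capitals. In the complete lists the difference of Stat3 region 2 was larger, at -51.67 points for Case against Ctrl (exact permutation p = 0.00216, adjusted p = 0.184).

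Socs3 region 1, chr11:117969983-117970132, minus strand: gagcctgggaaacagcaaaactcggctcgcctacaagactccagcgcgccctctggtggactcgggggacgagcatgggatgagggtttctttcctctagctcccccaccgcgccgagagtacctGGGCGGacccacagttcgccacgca

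The Ctrl mice had percentiles of 12.4, 0, 13.8, 0 and 0 in this region. Case mice were split, with 51.2, 83.3 and 60.7 in Case 2, 3 and 5, 1.06 in Case 4 and no summit in Case 1 and 6. Dapa mice had 56.2, 63.2, 71.6, 82.3, 21.2 and 38.1, all above every Ctrl mouse in these lists. The share of regions that separate the groups so was not counted. By the complete lists 3 of 5 Ctrl mice, 5 of 6 Case mice and 6 of 6 Dapa mice had a summit in the region. Ctrl 3 then stood at 46.0, above Dapa 11 at 44.0, so the groups overlapped.

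The means were 5.24 ± 7.20 (SD, n = 5) in Ctrl, 32.7 ± 37.0 (SD, n = 6) in Case and 55.5 ± 22.4 (SD, n = 6) in Dapa mice. Dapa exceeded Ctrl by 50.2 points (exact permutation p = 0.00433, adjusted p = 0.224), where 3.9% of regions were higher at an unadjusted p under 0.05. All db/db mice exceeded Ctrl by 38.8 points (exact permutation p = 0.0208, adjusted p = 0.234), where 2.93% of regions were higher at that threshold. With complete lists the differences were 48.8 points (exact permutation p = 0.00649) and 34.4 points (exact permutation p = 0.0427). Case exceeded Ctrl by 27.5 points and Dapa exceeded Case by 22.7 points, and neither passed (exact permutation p = 0.16 and 0.223, adjusted p = 0.536 and 1.00). Without Case 3 the difference between Case and Ctrl was 17.3 points (exact permutation p = 0.365). Presence alone, 2 of 5 against 6 of 6, gave Fisher's exact p = 0.0606. The highest percentiles in this region were those of Case 3 and of Dapa 8, 9 and 10. These are also the only libraries with a leukocyte marker summit, 2 in Case 3 and 1 in each of the others. The part of cell makeup in these differences was not tested.

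Ptpn1 (ENSMUSG00000027540.13, chr2:167932057-167979385), the phosphatase that acts on Jak2, had the most regions, 6. Its start, chr2:167931977-167932602, and a region in intron 1, chr2:167950556-167951167, were open in all 17 mice. The strongest summit had percentiles of 79.1, 83.7, 81.4, 75.4 and 91.0 in Ctrl mice, 75.9 to 93.9 in Case mice (median 90.1) and 80.01 to 94.7 in Dapa mice (median 85.5). The groups overlapped, and db/db mice exceeded Ctrl by 4.99 points (exact permutation p = 0.144, adjusted p = 0.55). With complete lists the difference was 1.28 points (exact permutation p = 0.679). With mice left out in turn it ran from 3.30 points without Ctrl 4 to 7.21 without Ctrl 5. Only without Ctrl 5 was the exact permutation p under 0.05, at 0.0489. The RefSeq promoter of Ptpn1 held 2 GC boxes, and the 300 bases at the median of the intron 1 region held 1 STAT pair.

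Case mice had more Ptpn1 summits by the unadjusted test. The Ctrl mice had 2, 2, 3, 2 and 2 summits in the window, Case mice 4, 3, 6, 3, 5 and 4, and Dapa mice 3, 4, 3, 2, 2 and 3. The additional summits came from 4 regions present in 2 to 6 of the 17 mice, upstream and in intron 1, and from single summits in introns 1, 3 and 5 and exon 9. The difference was 1.97 summits between Case and Ctrl (exact permutation p = 0.013, adjusted p = 0.564), where 1.1% of genes had more at an unadjusted p under 0.05. It was 1.30 for all db/db mice (exact permutation p = 0.0297, adjusted p = 0.637) against 1.32% of genes, and with mice left out in turn the exact permutation p ran up to 0.0747. Dapa had fewer than Case mice, a difference of -1.33 (exact permutation p = 0.0801, adjusted p = 1.00). In the complete lists Case and Ctrl differed by 0.93 summits (exact permutation p = 0.201), and all db/db mice and Ctrl by 0.35 (exact permutation p = 0.663).

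**Figure D4:**
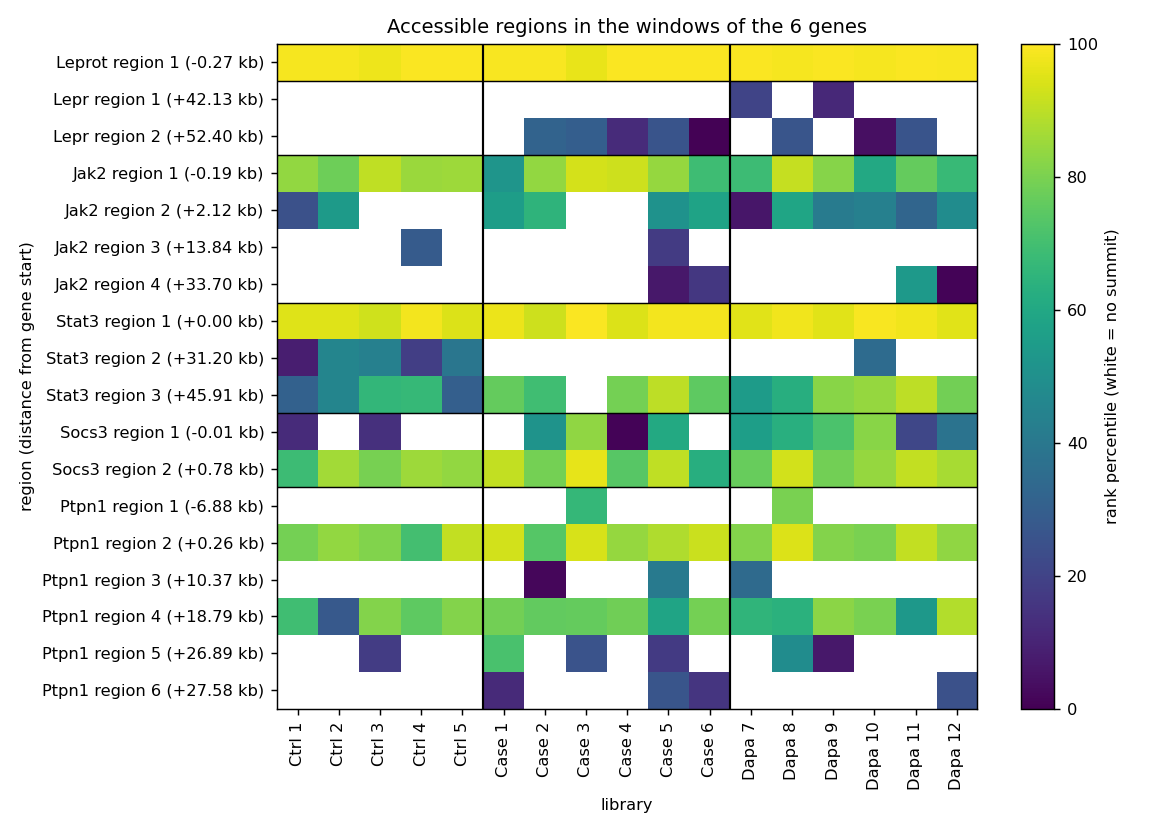
Rank percentile (colour, white for no summit) of the 18 regions in the windows of the 6 genes, by row, in the 17 libraries, by column, with the distance of each region's median summit from the gene start in kb. Leprot region 1, Jak2 region 1, Stat3 region 1, Socs3 region 2 and Ptpn1 regions 2 and 4 are filled in all libraries, and the Lepr rows are empty in all 5 Ctrl libraries.

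By the strongest summit in the window, Lepr alone among the 6 genes had an unadjusted exact permutation p under 0.05, in Case against Ctrl (p = 0.0281), Dapa against Ctrl (p = 0.00433) and db/db against Ctrl (p = 0.00582). None of the 6 passed in Dapa against Case. The adjusted values for Lepr were 0.297, 0.226 and 0.17. Without any 1 of the 5 Ctrl mice Case against Ctrl gave an exact permutation p of 0.0571, and with complete lists the unadjusted calls for Case and for db/db were lost, as given above. Over all genes tested, 13.5% had an unadjusted p under 0.05 in Case against Ctrl, 3.86% in Dapa against Case, 13.7% in Dapa against Ctrl and 13.7% in db/db against Ctrl, so that 1 of 6 members is near the background. The median difference of the 6 genes between db/db and Ctrl mice was 2.29 points, beside -0.61 over all genes tested.

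**Figure D5:**
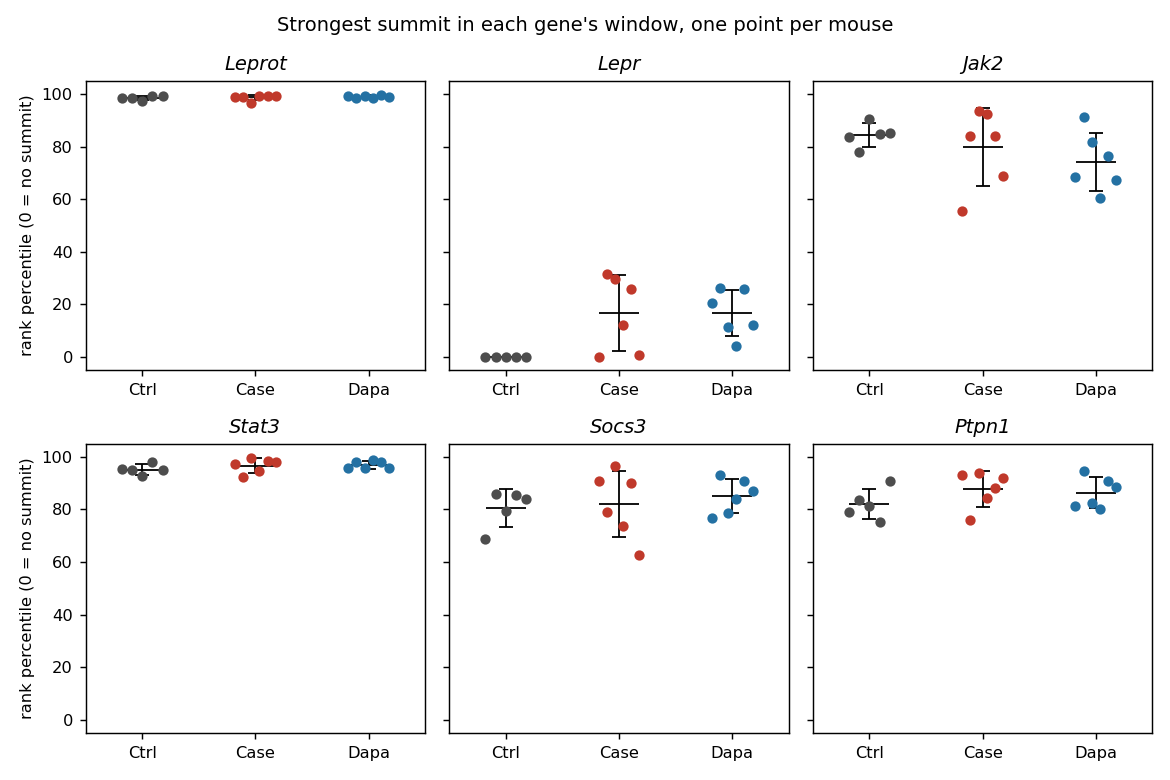
Rank percentile of the strongest summit in the window of each of the 6 genes (y axis, 0 where there is none), 1 point per mouse, with the mean and SD (n = 5 Ctrl, 6 Case, 6 Dapa). Leprot and Stat3 sit above 90 in every mouse, and Lepr is at 0 in the 5 Ctrl mice and at most 31.7 elsewhere.

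A list of 27 other genes of leptin and JAK-STAT signalling was read in the same way. All 27 had a summit in at least 1 library and 22 had one in all 17. Of the 6 members 5 had one in all 17, and Lepr had one in 11 of the 17. Over all 55413 annotated genes, 34822 had a summit in at least 1 library. For Case against Ctrl 1 gene was higher and none lower at an unadjusted p under 0.05, of 26 tested. For Dapa against Ctrl 3 were higher and none lower, for db/db against Ctrl 2 were higher and none lower, and for Dapa against Case none passed, of 27 tested in each. Over all genes tested, 4.58%, 5.26% and 4.64% were higher at that threshold in Case, Dapa and db/db against Ctrl, and 8.88%, 8.44% and 9.03% were lower. No gene passed after adjustment over all genes. The list's median difference between db/db and Ctrl mice was -0.96 points, beside -0.61 over all genes. Between Dapa and Case mice it was 3.21 points, beside 0.18 over all genes. Case and Dapa mice differed from Ctrl by a median of -1.52 and 0.87 points, beside -1.26 and -0.84 over all genes.

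Those that passed without adjustment were 2 STAT factors, a phosphatase and an inhibitor. Stat5b, which relays growth hormone and cytokine signals, was 69.2 ± 3.76 (SD, n = 5) in Ctrl and 82.0 ± 8.64 (SD, n = 6) in Case mice (exact permutation p = 0.0152, adjusted p = 0.252). In db/db against Ctrl it had p = 0.0223 (exact permutation, adjusted p = 0.27). Its close relative Stat5a was 62.5 ± 7.80 (SD, n = 5) in Ctrl and 79.0 ± 13.3 (SD, n = 6) in Dapa mice (exact permutation p = 0.0476, adjusted p = 0.355), and db/db against Ctrl gave an exact permutation p of 0.0263 (adjusted p = 0.289). Stat5b, Stat5a and Stat3 lie next to each other on chromosome 11 and are not independent loci. Ptpn11, the phosphatase SHP2 that docks on the receptor and passes its signal to the MAP kinase branch, was 64.2 ± 8.58 (SD, n = 5) in Ctrl and 77.5 ± 8.55 (SD, n = 6) in Dapa mice (exact permutation p = 0.0303, adjusted p = 0.301). Cish, an inhibitor of the Socs family, was 75.4 ± 13.0 (SD, n = 5) and 84.4 ± 3.11 (SD, n = 6) in the same groups (exact permutation p = 0.0455, adjusted p = 0.351).

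The neighbours of Lepr did not show its pattern. Of 15 other protein-coding genes within 1 Mb, 5 had a summit in all 17 mice, among them Leprot and the kinase gene Jak1, and 4 had none in any. None of those tested had an unadjusted p under 0.05 in db/db against Ctrl by either exact test. The largest difference was at Dnajc6, where 5 of 5 Ctrl mice, 4 of 6 Case mice and 3 of 6 Dapa mice had a summit (Fisher's exact p = 0.245).

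Genes with a percentile pattern most like that of a member over the 17 libraries were ranked by Spearman's rho, as a description, since the libraries share list quality and group. The 3 nearest to Lepr were Rras2 (rho 0.85), Cirbp (0.82) and Pts (0.80), each with a summit in all 17 mice, so that only the order of mice is alike. The nearest to Leprot was Phlpp2 (0.81), to Jak2 Nup98 (0.87), to Stat3 Nfatc4 (0.81), to Socs3 Bms1 (0.81) and to Ptpn1 Agrp (0.79). For each member these are the highest values among 13359 to 13407 genes compared. How high rho would run among unrelated genes was not tested.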

How the data were processed

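ATAC-seq libraries of mouse kidney (5 Ctrl, 6 Case, 6 Dapa) were used. The authors aligned reads to mm10 with Bowtie2 following the ENCODE pipeline, dropped duplicate reads and blacklisted stretches, shifted reads for the transposase and called peaks with MACS2 in each library. DiffBind and HOMER are also named in the submitters' processing notes. The deposited files give summit positions and a −log10 score, for which the choice between p-value and q-value is not given in the sources used here. Since the score depends on read depth, which is unknown, only ranks within a library were compared.

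Groups came from the sample labels, and nothing in them names a batch. The members and gene lists were chosen with earlier results of these data known. Windows used GENCODE vM21. Consensus regions were summits extended by 250 bp, merged over 17 libraries and kept in at least 2 (52371 regions). Presence was tested by Fisher's exact test and percentiles by exact permutation of mice, 2-sided, with Benjamini-Hochberg adjustment over all genes or regions that could be tested (percentiles: a summit in at least 3 compared libraries). The percentile test of regions, the number of summits and the repeat measure were added after seeing the data. Named genes were the 6 members, list genes with an unadjusted p under 0.05, and the nearest patterns (protein-coding, a summit in at least 9 libraries, starting over 1 Mb away). The tests were tested on simulated data. Python 3 libraries scipy and numpy were used, with RefSeq promoters (GRCm38.p6), in which all 6 members matched.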

Additional observations from a re-analysis of the deposited data

Results flagged for a closer look

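In 17 sets of percentiles (6 genes in 3 groups, without Lepr in Ctrl mice, where all values are 0), 1 mouse stood far from the rest of its group. Leprot had a percentile of 96.7 in Case 3, the lowest of the 6 Case mice, with a gap to the next of 0.773 of the group's range. About 1 set in 20 is expected to show such a gap by chance. Case 3 is also the library without Stat3 region 3 and with 2 leukocyte markers, and the part of its cell makeup was not tested.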

How the results depend on the processing

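The 62 results were recomputed under 854 alternatives (complete lists, shorter lists, other windows, other extensions, each mouse left out in turn). In 817 the direction was kept with no call after adjustment, which says nothing of stability, since none of the 62 results had passed that threshold. Of 23 results with an unadjusted exact p under 0.05, recomputed 355 times, that call held 295 times and was lost 60 times, 14 of them with complete lists. In 7 a difference in presence went to 0, among them the Lepr presence in all 4 comparisons with shorter lists, in which no mouse had a Lepr summit. Another 29 changed direction, each in a difference that had passed no test.

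With complete lists the Leprot difference was -0.281 for Case and -0.0697 for db/db against Ctrl, the Socs3 difference -2.11 and -0.30, and the Ptpn1 number of summits for Dapa against Ctrl -0.23. With 10 kb to each side of the gene the Socs3 difference for Dapa against Case was -5.23. With mice left out in turn, Case against Ctrl ran from -0.25 to 0.46 for Leprot, -7.42 to 0.17 for Jak2 and -1.497 to 5.39 for Socs3. Dapa against Case ran from -0.0698 to 0.478 for Leprot, -3.25 to 3.09 for Lepr, -0.58 to 0.86 for Stat3 and -1.07 to 5.65 for Socs3. Over db/db against Ctrl the range was -0.0842 to 0.422 for Leprot and -0.0917 to 4.81 for Socs3. Stat3 region 2 in db/db against Ctrl ran from -33.67 to -24.46, and without Dapa replicate 10, at -30.98, it passed the adjusted threshold.

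The Lepr presence in Case against Ctrl kept an unadjusted exact p of at most 0.0476 whichever mouse was left out. Its percentile in Case against Ctrl went to an exact p of 0.0571, and the presence of Lepr region 2 in db/db against Ctrl to 0.0769, without any 1 of the 5 Ctrl mice. As pairs of the same number (replicate block, exact sign-flip test), Case against Ctrl gave -0.0882 points for Leprot and 19.9 for Lepr (p = 0.125). Since neither Ctrl 1 nor Case 1 had a Lepr summit, this test could give no smaller p for Lepr and cannot decide. Same-numbered mice did not deviate together (r from -0.04 to 0.04), so they share only a number. Depth is unknown. The cause of these changes was not tested.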

Other observations

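Tandem repeats like that of the Lepr intron, with at least 80% of bases equal to the base 1 period on at a period of 10 to 60 bases, were counted over all regions, as a description chosen after the Lepr array was seen. They made up 1.06% of 52371 regions. Among the 335 regions with a summit in more db/db than Ctrl mice at an unadjusted exact p under 0.05, 16 (4.78%) held one, and among the 2210 with a summit in fewer, 3 (0.136%). For Case against Ctrl the counts were 9 of 99 (9.09%) and 0 of 1063. Lepr region 2, which led to the count, is itself among the 16 and the 9. The 1.06% covers all regions, whereas those called came from the 27403 (db/db) and 11404 (Case) that could be tested. The difference between these shares was not tested.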
